A study of Homo sapiens with 6 samples.

Results

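The aldehyde dehydrogenases examined here are 10 genes (ALDH1A1, ALDH1A3, ALDH3A1, ALDH3A2, ALDH2, ALDH1B1, ALDH7A1, ALDH9A1, ALDH4A1 and ALDH18A1), listed by name and measured in A549 cells with and without knockdown of the lncRNA PLANE. All 10 were found among the 34957 genes of the deposited tables, with 92 of the 180253 transcripts, and all 10 passed the minimum level for testing in every comparison. A549 is an established epithelial line from a human lung adenocarcinoma, and the cells were transfected with a control siRNA (si-ctrl) or with one of 2 siRNAs against PLANE (si-PLANE.1 and si-PLANE.2), with 2 libraries of short-read RNA-seq in each of the 3 groups. All cells came from the same line without a genetic change, and the level of PLANE, which would check the knockdown, was not analysed here. The libraries held 10572151 to 20778431 expected counts, estimates of the reads from each transcript, and each transcript also had an FPKM value, which is scaled to transcript length and depth.

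Most aldehyde dehydrogenases use NAD or NADP to oxidize aldehydes to carboxylic acids. This removes reactive products of alcohol, lipid and amino acid breakdown and, in the case of retinal, makes retinoic acid. High aldehyde dehydrogenase activity is a known trait of A549 cells and a common marker used to sort stem-like cancer cells. The family members differ in substrate and in location, with ALDH2, ALDH1B1, ALDH4A1 and ALDH18A1 in mitochondria and ALDH1A1 in the cytosol.

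After si-PLANE.1 none of the 10 genes passed the test. After si-PLANE.2, 8 of 10 passed the test on counts, as did 64.1% of all genes, with 7 higher, led by ALDH4A1, which breaks down a proline intermediate, by 1.64 ± 0.18 (SE) on the log2 scale, and ALDH2, which clears acetaldehyde, lower, at -0.37 ± 0.10. On the FPKM and TPM scales, ALDH1A1 and ALDH4A1 were higher and ALDH2 was lower as on counts, while ALDH7A1 stayed past the threshold on FPKM only and the other members did not pass. A test of the make-up of transcripts after si-PLANE.2 called ALDH1A1, ALDH3A2, ALDH7A1 and ALDH4A1, 4 of 9 members tested, beside 41.2% of all genes. The tests of all 4 include transcripts that reached the minimum level in si-ctrl only or in si-PLANE.2 only. A difference was thus built into their selection, so these calls cannot decide whether the make-up changed. ALDH1A1-202, a short transcript of the most abundant member, was at 0 with si-ctrl and with si-PLANE.1, and at 1263 and 1557 FPKM after si-PLANE.2.

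The sequences at 2 splice junctions are shown because they are what tells these transcripts apart in the coding region. They were read from the GRCh37 genome along the GENCODE v44lift37 transcripts, 5′ to 3′, with the 30 coding bases shared by each pair in lower case and the first 13 bases after the paths part in capitals. ALDH1A1 is on the minus strand, and ALDH1A1-202 leaves out chr9:75531974-75539004, which is 7031 bases, after 677 shared coding bases. The part left out begins with GC rather than GT and ends with AG. ALDH1A1-201 holds 501 codons and ALDH1A1-202 holds 230.
ALDH1A1-201: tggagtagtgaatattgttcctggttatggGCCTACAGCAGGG
ALDH1A1-202: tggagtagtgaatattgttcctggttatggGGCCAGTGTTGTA
ALDH1A3 is on the plus strand, and its 2 coding transcripts with the largest shares part after 345 shared coding bases, at introns chr15:101427918-101432714 and chr15:101427918-101436137. ALDH1A3-201 holds 512 codons and ALDH1A3-202 holds 405.
ALDH1A3-201: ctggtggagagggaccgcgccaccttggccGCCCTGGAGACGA
ALDH1A3-202: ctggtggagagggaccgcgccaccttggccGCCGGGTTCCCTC
Of the 822 exon bases of ALDH1A1-202, 819 also lie in exons of ALDH1A1-201, with 3 bases outside them.

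The levels of the family differed widely within every group. ALDH1A1 was the most abundant member, between rank 18 and rank 30 of 34957 genes by FPKM. It alone held 72.5% of the summed FPKM of the 10 members in si-ctrl, 72.1% after si-PLANE.1 and 81.4% after si-PLANE.2. The si-PLANE.2 sum of ALDH1A1 includes 1263 and 1557 FPKM of ALDH1A1-202, a transcript of 822 bases, and summed FPKM weights reads from short transcripts more. Together the 10 genes took 0.749% and 0.690% of the gene counts in si-ctrl, 0.609% and 0.713% after si-PLANE.1, and 0.933% and 0.903% after si-PLANE.2. Without ALDH1A1 these shares lay between 0.159% and 0.186% in all 6 libraries.

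The order of mean FPKM in si-ctrl was ALDH1A1, ALDH3A1, ALDH2, ALDH3A2, ALDH7A1, ALDH18A1, ALDH9A1, ALDH1B1, ALDH1A3 and ALDH4A1. Each gene lay above the next in both si-ctrl libraries, and the same order with the same separation was seen in the si-PLANE.1 libraries. After si-PLANE.2 ALDH3A2 stood above ALDH2, and ALDH4A1 stood above ALDH1A3. In that group the neighbours ALDH2, at 99.9 to 103 FPKM, and ALDH7A1, at 95.6 to 101 FPKM, overlapped.

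**Figure D1:**
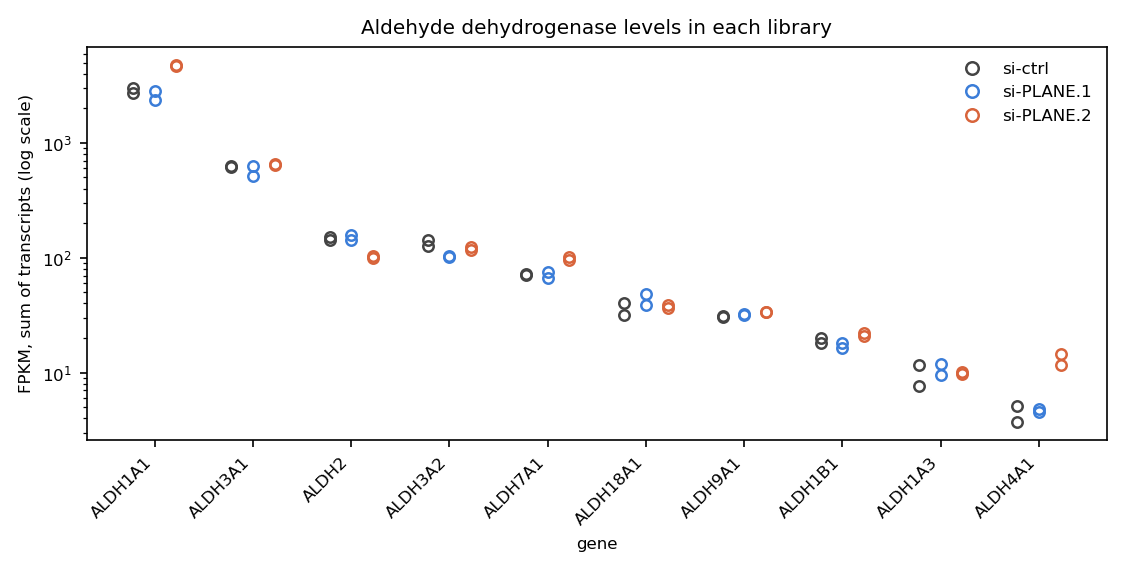
The plot shows the summed FPKM of each member (log scale) in each library, 1 open circle per library and 2 per group, ordered by the si-ctrl mean. The ALDH1A1 circles of si-PLANE.2 lie at 4711 and 4784, above all other ALDH1A1 values, and the ALDH4A1 circles of si-PLANE.2 lie at 11.5 and 14.5, above the 3.68 to 5.06 of the other 4 libraries.

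The comparison of si-PLANE.1 with si-ctrl asked whether the first siRNA changed the family. In fits without a replicate block no member was called at a threshold of 0.05 for the adjusted p by the quasi-likelihood test of edgeR, by DESeq2 or by limma. In edgeR 5 of 14535 genes, or 0.0344%, were called, 0.00688% higher and 0.0275% lower. The unadjusted p was under 0.05 for 1 member, beside 10.4% of all genes. The median log2 fold change of the members was -0.08, beside 0.00 for all genes tested. The labels do not tie the libraries to separate cultures, so the p-values measure only the spread between these libraries, of which there were 2 in each group. FPKM ranges of the 2 groups did not overlap for 2 members, ALDH9A1 (higher) and ALDH3A2 (lower), while 41.1% of all genes tested had ranges apart in this comparison.

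The comparison of si-PLANE.2 with si-ctrl asked the same of the second siRNA. Of the 10 members, 7 rose (ALDH1A1, ALDH1A3, ALDH1B1, ALDH7A1, ALDH9A1, ALDH4A1 and ALDH18A1), 1 fell (ALDH2) and 2 did not pass the test (ALDH3A1 and ALDH3A2). In this comparison 64.1% of the 14168 genes tested were called (67.7% at an unadjusted p under 0.05, beside 9 members), 31.8% higher and 32.3% lower, so the calls among members stand beside a background in which most genes were called. The median log2 fold change of the members was 0.41, beside -0.03 for all genes. The direction depends on the scale, since the median of all genes was -0.22 on log2(FPKM + 1) and -0.37 on log2(TPM + 1), where the median of the members was 0.11 and -0.04. On counts 4512 genes were called higher and 4571 lower, beside 3006 and 5105 on the FPKM scale and 2313 and 5773 on the TPM scale. FPKM ranges did not overlap for 8 of the 10 members, 6 higher and 2 lower, beside 80.6% of all genes tested.

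Some differences set both libraries of si-PLANE.2 apart and move with every result of that group. Of 20 listed RNAs without a poly(A) tail 7 were matched by name in the tables, all of them histone mRNAs. Whether the unmatched RNAs are absent was not checked. The 7 summed to 1336 and 1404 FPKM with si-ctrl, 804 and 1041 FPKM after si-PLANE.1, and 41.2 and 34.1 FPKM after si-PLANE.2. Libraries were made by poly(A) selection or by depletion of rRNA, and which library had which is not given, so the way of preparation and the second siRNA cannot be told apart as sources of these differences. Leaving out si-PLANE.2 replicate 3 kept 2 of the 8 calls (ALDH4A1 and ALDH7A1) and leaving out replicate 4 kept 3 (these and ALDH9A1), when the share of all genes called was 46.0% and 46.4%. Leaving out si-ctrl replicate 1 or 2 gave 9 and 8 calls, beside 69.8% and 68.7% of all genes.

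The cell type was checked against its markers. Of the 6 epithelial markers, the keratins KRT7, KRT8 and KRT18 were at 1053 to 1269, 2712 to 5823 and 3000 to 5131 FPKM in the 6 libraries and were called higher on counts after si-PLANE.2, by 0.51, 1.23 and 0.69. KRT19 was low, at 0.76 to 5.38 FPKM, and did not pass. The adhesion genes EPCAM and CDH1 were called lower after si-PLANE.2, at 2.59 and 2.70 FPKM for EPCAM (si-ctrl 18.3 and 15.4) and 36.5 and 35.4 FPKM for CDH1 (si-ctrl 130 and 156). Of the 7 markers of other cell types examined 6 were matched by name in the tables. Their summed levels were 34.5 to 41.4 FPKM with si-ctrl, 29.8 to 52.8 after si-PLANE.1 and 53.3 to 66.9 after si-PLANE.2, nearly all of it CD68 and COL1A1. PTPRC, which defines leukocytes, was at 0.02 FPKM or less in each library, and CD3E, which defines T cells, was listed at 0 in all 6. In bulk RNA, fewer cells of a kind and less RNA per cell cannot be told apart.

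**Figure D2:**
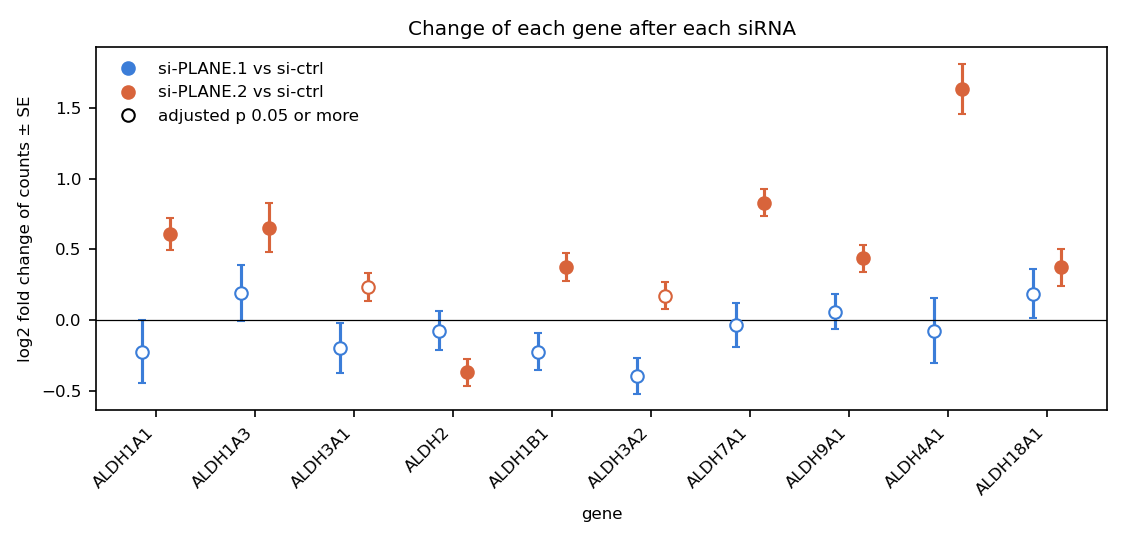
Points give the log2 fold change of counts for each member after si-PLANE.1 (blue) and si-PLANE.2 (orange) against si-ctrl, with the SE from the edgeR fit as bars, and open points did not pass an adjusted p of 0.05. All si-PLANE.1 points are open and lie between -0.39 and 0.19, whereas the si-PLANE.2 points run from -0.37 for ALDH2 to 1.64 for ALDH4A1.

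ALDH1A1 and ALDH1A3 oxidize retinal to retinoic acid. ALDH1A1 (GRCh37 chr9:75515587-75695358, minus strand) was at 2981 and 2699 FPKM with si-ctrl, 2365 and 2807 FPKM after si-PLANE.1, and 4711 and 4784 FPKM after si-PLANE.2. Both si-PLANE.2 libraries lay above the other 4, and the si-PLANE.1 range overlapped si-ctrl. Counts rose by 0.61 ± 0.12 log2 units after si-PLANE.2, a fold of 1.52 (edgeR adjusted p = 0.0026). The rise was 0.74 on the FPKM scale and 0.58 on the TPM scale, with limma adjusted p-values of 0.0028 and 0.0074. The mean transcript length of ALDH1A1, weighted by counts, was 2105 and 2104 bases in si-ctrl and 1973 and 1936 bases after si-PLANE.2. Without si-PLANE.2 replicate 3 or 4 the edgeR adjusted p was 0.078 and 0.056. After si-PLANE.1 the difference was -0.22 ± 0.22 (edgeR adjusted p = 0.75).

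ALDH1A3 (chr15:101417919-101456831, plus strand) was at 11.5 and 7.60 FPKM with si-ctrl, 11.8 and 9.56 FPKM after si-PLANE.1, and 10.1 and 9.71 FPKM after si-PLANE.2, so the 3 groups overlapped in FPKM. The counts of the gene were 261 and 192 in si-ctrl, 214 and 214 after si-PLANE.1, and 485 and 400 after si-PLANE.2, from libraries of unequal depth. On counts the gene rose by 0.65 ± 0.17 after si-PLANE.2 (edgeR adjusted p = 0.013), while the difference was 0.07 ± 0.21 on the FPKM scale and -0.08 on the TPM scale. The mean transcript length, weighted by counts, was 3075 and 3324 bases in si-ctrl and 3649 and 3653 bases after si-PLANE.2. Summed FPKM gives more weight to reads from short transcripts. Without si-PLANE.2 replicate 3 or 4 the edgeR adjusted p was 0.089 and 0.053.

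ALDH3A1 and ALDH3A2 are related enzymes for aromatic and fatty aldehydes, the second of which is the membrane-bound fatty aldehyde dehydrogenase lost in Sjögren-Larsson syndrome. Their genes are neighbours on chr17, ALDH3A2 at 19551449 to 19589073 on the plus strand and ALDH3A1 at 19641297 to 19652256 on the minus strand. ALDH3A1, the next most abundant member after ALDH1A1, was at 621 and 630 FPKM with si-ctrl, 513 and 629 FPKM after si-PLANE.1, and 650 and 645 FPKM after si-PLANE.2. The si-PLANE.2 values were just above those of si-ctrl, and the log2 difference was 0.23 ± 0.10 on counts (edgeR adjusted p = 0.071) and -0.11 on the TPM scale. DESeq2 called it at an adjusted p of 0.033, as did edgeR without si-ctrl replicate 1 (adjusted p = 0.042) or without si-ctrl replicate 2 (adjusted p = 0.0058).

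ALDH3A2 was at 143 and 127 FPKM with si-ctrl, 101 and 104 FPKM after si-PLANE.1, and 124 and 118 FPKM after si-PLANE.2. Both siRNA groups lay below si-ctrl in FPKM. On counts the log2 difference was -0.39 ± 0.13 after si-PLANE.1, with an unadjusted p of 0.015 and an adjusted p of 0.39 in edgeR. After si-PLANE.2 it was 0.17 ± 0.09 (edgeR adjusted p = 0.14), and the sign turned on the FPKM and TPM scales, at -0.16 and -0.32. ALDH3A2 was the member with the lowest unadjusted p after si-PLANE.1 and did not pass after either siRNA in fits without a replicate block.

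ALDH2 and ALDH1B1 are mitochondrial enzymes that oxidize acetaldehyde, ALDH2 being the main one in alcohol metabolism. ALDH2 (chr12:112204691-112255336, plus strand) was at 144 and 152 FPKM with si-ctrl, 142 and 157 FPKM after si-PLANE.1, and 103 and 99.9 FPKM after si-PLANE.2. The si-PLANE.2 libraries were below all others, and ALDH2 was the only member called lower on counts, at -0.37 ± 0.10 (edgeR adjusted p = 0.011). The difference was -0.54 for FPKM and -0.70 for TPM, with limma adjusted p-values of 0.0054 and 0.0028. The median of all genes was also lower on these scales, at -0.22 and -0.37, beside -0.03 on counts. Without si-PLANE.2 replicate 3 or 4 the edgeR adjusted p was 0.098 and 0.14.

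ALDH1B1 (chr9:38392699-38398658, plus strand), a gene with 1 transcript in the tables, was at 19.8 and 18.0 FPKM with si-ctrl, 18.1 and 16.5 FPKM after si-PLANE.1, and 22.1 and 21.0 FPKM after si-PLANE.2. The si-PLANE.2 values were above the rest. On counts it rose by 0.38 ± 0.10 (edgeR adjusted p = 0.013), beside a median of -0.03 for all genes. The difference was 0.18 on the FPKM scale and 0.03 on the TPM scale, with limma adjusted p-values of 0.25 and 0.89. There the median of all genes was -0.22 and -0.37. Without si-PLANE.2 replicate 3 or 4 the edgeR adjusted p was 0.12 and 0.066.

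ALDH7A1 and ALDH9A1 act in amino acid breakdown and synthesis. ALDH7A1 (antiquitin) oxidizes the semialdehyde of lysine breakdown, and its loss causes pyridoxine-dependent epilepsy, while ALDH9A1 oxidizes trimethylaminobutyraldehyde on the way to carnitine. ALDH7A1 (chr5:125866892-125931054, minus strand) was at 71.3 and 71.7 FPKM with si-ctrl, 66.3 and 75.6 FPKM after si-PLANE.1, and 95.6 and 101 FPKM after si-PLANE.2. The si-PLANE.2 libraries were above the other 4. Counts rose by 0.83 ± 0.09, a fold of 1.78 (edgeR adjusted p = 0.00019), and the call was kept in each of the 4 fits that left out a library, with a highest adjusted p of 0.0049. The rise was 0.45 on the FPKM scale (limma adjusted p = 0.010) and 0.29 on the TPM scale (limma adjusted p = 0.079).

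ALDH9A1 (chr1:165631453-165667799, minus strand) was at 30.8 and 30.3 FPKM with si-ctrl, 32.6 and 31.5 FPKM after si-PLANE.1, and 33.9 and 33.8 FPKM after si-PLANE.2. The 3 groups did not overlap, although their values were close. Counts rose by 0.44 ± 0.10 after si-PLANE.2 (edgeR adjusted p = 0.0050), but the difference was 0.14 on the FPKM scale and -0.01 on the TPM scale, where it did not pass. After si-PLANE.1 the difference was 0.06 ± 0.12 (edgeR adjusted p = 0.88). Without si-PLANE.2 replicate 3 the call after si-PLANE.2 was lost (edgeR adjusted p = 0.056).

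ALDH4A1 and ALDH18A1 work at opposite ends of proline metabolism. ALDH4A1 oxidizes pyrroline-5-carboxylate to glutamate in the last step of proline breakdown, and ALDH18A1 makes pyrroline-5-carboxylate from glutamate for proline and ornithine synthesis. ALDH4A1 (chr1:19197924-19229218, minus strand), the least abundant member in si-ctrl, was at 3.68 and 5.06 FPKM with si-ctrl, 4.52 and 4.84 FPKM after si-PLANE.1, and 11.5 and 14.5 FPKM after si-PLANE.2. Both si-PLANE.2 libraries lay above the other 4. Counts, at 156 and 219 in si-ctrl and 703 and 734 after si-PLANE.2, rose by 1.64 ± 0.18, a fold of 3.11 (edgeR adjusted p = 0.00016). This was the largest change among the members, and it was called in each of the 4 fits that left out a library and on the FPKM and TPM scales, at 1.39 and 1.28.

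ALDH18A1 (chr10:97365698-97416468, minus strand) was at 40.0 and 31.7 FPKM with si-ctrl, 48.3 and 38.8 FPKM after si-PLANE.1, and 36.5 and 38.4 FPKM after si-PLANE.2. The groups overlapped, and the 2 si-ctrl libraries differed more from each other than the group means did. On counts the gene was called after si-PLANE.2, by 0.37 ± 0.13 (edgeR adjusted p = 0.041). The call was lost in 3 of the 4 fits that left out a library, without si-ctrl replicate 2 (edgeR adjusted p = 0.074) or si-PLANE.2 replicate 3 (0.19) or 4 (0.12), as it was at a minimum of 2 FPKM (0.061) and with all 6 libraries in 1 fit (0.060). The log2 difference was 0.07 on the FPKM scale and -0.09 on the TPM scale.

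**Figure D3:**
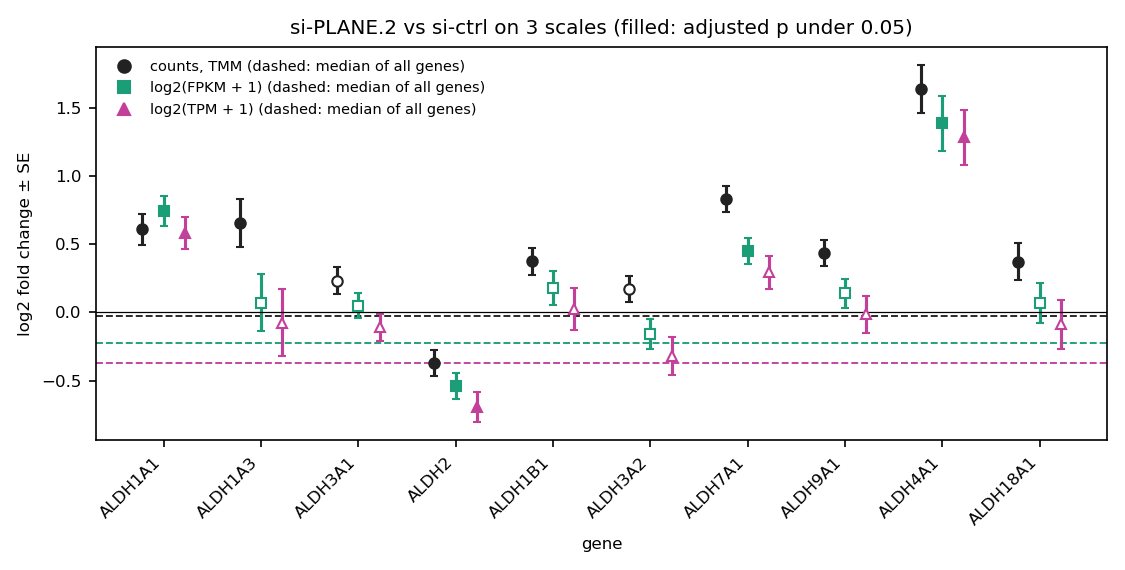
The log2 fold change of each member after si-PLANE.2 is plotted on counts with TMM scaling (circles), log2(FPKM + 1) (squares) and log2(TPM + 1) (triangles), with SE bars, filled points for an adjusted p under 0.05 and a dashed line at the median of all genes on that scale. ALDH1A1, ALDH4A1 and ALDH2 are filled on all 3 scales, and the dashed lines lie at -0.03, -0.22 and -0.37.

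The 2 siRNAs were then compared with each other in a fit of all 6 libraries. On counts 8 of the 10 members were higher after si-PLANE.2 than after si-PLANE.1 and none lower, while ALDH2 (-0.29 ± 0.12) and ALDH18A1 (0.19 ± 0.16) did not pass. The share of all 14440 genes called was 64.4%, 31.1% higher and 33.4% lower, and 68.0% had an unadjusted p under 0.05, beside 9 members. On the FPKM and TPM scales ALDH2 was called lower, at -0.55 and -0.78 (limma adjusted p = 0.0042 and 0.00091). There ALDH1A1 and ALDH4A1 were called higher on both scales and ALDH7A1 on FPKM only, beside 58.6% and 59.8% of all genes called. For ALDH3A2 the difference was 0.57 ± 0.11 (edgeR adjusted p = 0.0014), although neither siRNA alone passed against si-ctrl, and on the TPM scale it was 0.01. The 2 comparisons with si-ctrl share their control libraries, so their fold changes are not independent of each other.

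Transcripts were examined next, with a main isoform defined as one that held at least 10% of its gene's FPKM as the mean over the 6 libraries. The 10 genes had 24 main isoforms. The one with the lowest share inside this limit was ALDH3A2-202, at 10.1%, and the one just outside was ALDH1A1-202, at 9.89%, which is described here because of its values and was therefore chosen after they were seen. After si-PLANE.1, none of the 23 main isoforms tested passed in edgeR or DESeq2, 2 had an unadjusted p under 0.05 in edgeR (4.43% of all transcripts), and 0 of 57625 transcripts were called, or 0.0%. After si-PLANE.2, 9 of 24 were called higher and 2 lower, beside 25.6% of the 56791 transcripts tested (12.9% higher and 12.7% lower). Of the 24, 4 reached the minimum level of 0.5 FPKM in only 1 of the 2 groups (ALDH1A3-202, ALDH3A2-219, ALDH3A2-201 and ALDH7A1-208), so that a difference was built into their selection, and they are described by their values with no p. Among the other 20, 8 rose and 1 fell. Of all 24, 15 had an unadjusted p under 0.05, beside 42.5%. Without si-PLANE.2 replicate 3 or replicate 4 there were 0 calls, both among main isoforms and among all transcripts, and without si-ctrl replicate 2 there were 7 among main isoforms, beside 19.4% of all transcripts. DESeq2 called 14, beside 35.7%. The median log2 fold change of the main isoforms was 0.43, beside -0.11 for all transcripts.

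Isoform use, the question of whether the transcripts of a gene changed unequally, was tested with diffSpliceDGE of edgeR. After si-PLANE.2, 4 of the 9 members with at least 2 tested transcripts were called, beside 41.2% of 10129 genes. They were ALDH1A1, ALDH3A2, ALDH7A1 and ALDH4A1, all from the edgeR Simes test and given with no p. The tests of all 4 include transcripts that reached the minimum level in 1 group only, among them ALDH4A1-203 and ALDH4A1-206. A difference was thus built into the selection behind these calls, so they cannot decide whether isoform use changed in the 4 genes. After si-PLANE.1, 0 of 8 members were called and 0 had an unadjusted p under 0.05 in edgeR, beside 0.882% of 10312 genes called. The gene-level F test of the same fit called 7 of the 9 after si-PLANE.2, beside 56.3% of all genes, and 0 of 8 after si-PLANE.1, beside 0.941%. Its calls include ALDH3A1 and ALDH18A1, whose tests also hold a transcript at the minimum level in 1 group only (ALDH3A1-211 and ALDH18A1-203).

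ALDH1A1-201, the long transcript of ALDH1A1, held 99.4% and 99.2% of the gene's FPKM with si-ctrl, 99.1% and 99.4% after si-PLANE.1, and 73.0% and 67.2% after si-PLANE.2. In FPKM it was at 2965 and 2677 in si-ctrl, 2343 and 2790 after si-PLANE.1, and 3440 and 3216 after si-PLANE.2. It rose by 0.53 ± 0.10 after si-PLANE.2 (edgeR adjusted p = 0.033). Most of the remainder with si-ctrl and si-PLANE.1 was ALDH1A1-205, which has no annotated coding sequence and held 0.525% to 0.783% there and 0.0792% and 0.106% after si-PLANE.2. It fell by 1.75 ± 0.36 (edgeR adjusted p = 0.037) and was named after its values were seen. After si-PLANE.2 the remainder was nearly all ALDH1A1-202, the transcript with the GC junction shown above, with no count in si-ctrl or si-PLANE.1 and 15483 and 16732 expected counts after si-PLANE.2. Against a floor of 3 counts in each si-ctrl library its level after si-PLANE.2 was at least 4380-fold higher, given with no test because these values led to its choice and it reached the minimum level in si-PLANE.2 only. The tables divide reads between these overlapping transcripts by an estimate, whose part in this result was not tested.

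ALDH1A3-201, which holds the long coding sequence shown above, was at 1.73 and 2.14 FPKM with si-ctrl, 2.74 and 3.49 after si-PLANE.1, and 5.46 and 5.43 after si-PLANE.2. Both si-PLANE.2 values were above the others, and the transcript rose by 1.77 ± 0.23 (edgeR adjusted p = 0.016). ALDH1A3-202, which skips part of the coding sequence, had 3.61 and 1.47 FPKM with si-ctrl and 0.58 and 0 FPKM after si-PLANE.2. ALDH1A3-205, a transcript of 586 bases annotated as a retained intron, held 39.2% and 45.4% of the gene's FPKM in si-ctrl from 20.6 and 16.4 counts, and 26.4% and 16.0% after si-PLANE.2 from 19.6 and 9.99 counts. It did not pass (edgeR adjusted p = 0.57). Its counts are low, so its share has a wide counting error.

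ALDH3A1-201 held 51.9% to 63.1% of its gene's FPKM in the 6 libraries and rose by 0.53 ± 0.09 after si-PLANE.2 (edgeR adjusted p = 0.026). The other 2 main isoforms, ALDH3A1-212 with 15.3% to 28.2% and ALDH3A1-207 with 15.6% to 17.3%, did not pass. Isoform use of ALDH3A1 was not called by the Simes test (edgeR adjusted p = 0.079) and was called by the F test (edgeR adjusted p = 0.013). Both tests include ALDH3A1-211, which reached the minimum level in si-ctrl only (1.80 and 2.93 FPKM, beside 0.69 and 0.18 after si-PLANE.2).

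ALDH3A2 had 5 main isoforms, and the listed values of 2 of its coding transcripts changed places. ALDH3A2-219 was at 34.6 and 25.9 FPKM with si-ctrl, 38.2 and 31.8 after si-PLANE.1, and 0 in both si-PLANE.2 libraries, at least 574-fold lower than in si-ctrl against a floor of 3 counts in each si-PLANE.2 library. ALDH3A2-201 was at 0 and 0.84 FPKM with si-ctrl, 0 in both si-PLANE.1 libraries, and 44.8 and 43.0 FPKM after si-PLANE.2. In GENCODE v44lift37 the 2 transcripts have the same coding intervals of 1455 bases, or 485 codons, and differ outside them. Reads are divided between such overlapping transcripts by an estimate, whose part in this result was not tested. Of the transcripts annotated as retained introns, ALDH3A2-207 fell by 1.89 and ALDH3A2-218 rose by 1.55 on the log2 scale (edgeR adjusted p = 0.019 and 0.027). Coding transcripts together held 54.3% and 62.5% of the gene's FPKM in si-ctrl and 57.7% and 58.9% after si-PLANE.2, so that the sum over coding transcripts moved less than its parts.

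ALDH7A1-203, a coding transcript with 294 codons, was at 11.9 and 16.1 FPKM with si-ctrl, 7.61 and 9.60 after si-PLANE.1, and 36.1 and 39.6 after si-PLANE.2. It rose by 1.74 ± 0.24 (edgeR adjusted p = 0.017), and ALDH7A1-210, annotated as a target of nonsense-mediated decay, rose by 0.91 ± 0.18 (edgeR adjusted p = 0.036). ALDH7A1-208, annotated as a retained intron, was at 18.6 to 19.9 FPKM in the other 4 libraries and at 0 and 0.98 FPKM after si-PLANE.2. ALDH7A1-209, another retained intron, was at 9.40 to 10.3 FPKM in si-ctrl and 5.47 to 6.97 after si-PLANE.2 and did not pass. Coding transcripts held 22.5% and 28.3% of the gene's FPKM with si-ctrl, 18.6% and 21.9% after si-PLANE.1, and 49.8% and 51.2% after si-PLANE.2. ALDH7A1-215 and 1 further transcript of 1935 bases have the same values in every library, so reads from them cannot be told apart. The further transcript has no annotated type and is left out of the coding shares above. It held 3.85% and 4.17% of the gene's FPKM with si-ctrl and 9.85% and 10.0% after si-PLANE.2.

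**Figure D4:**
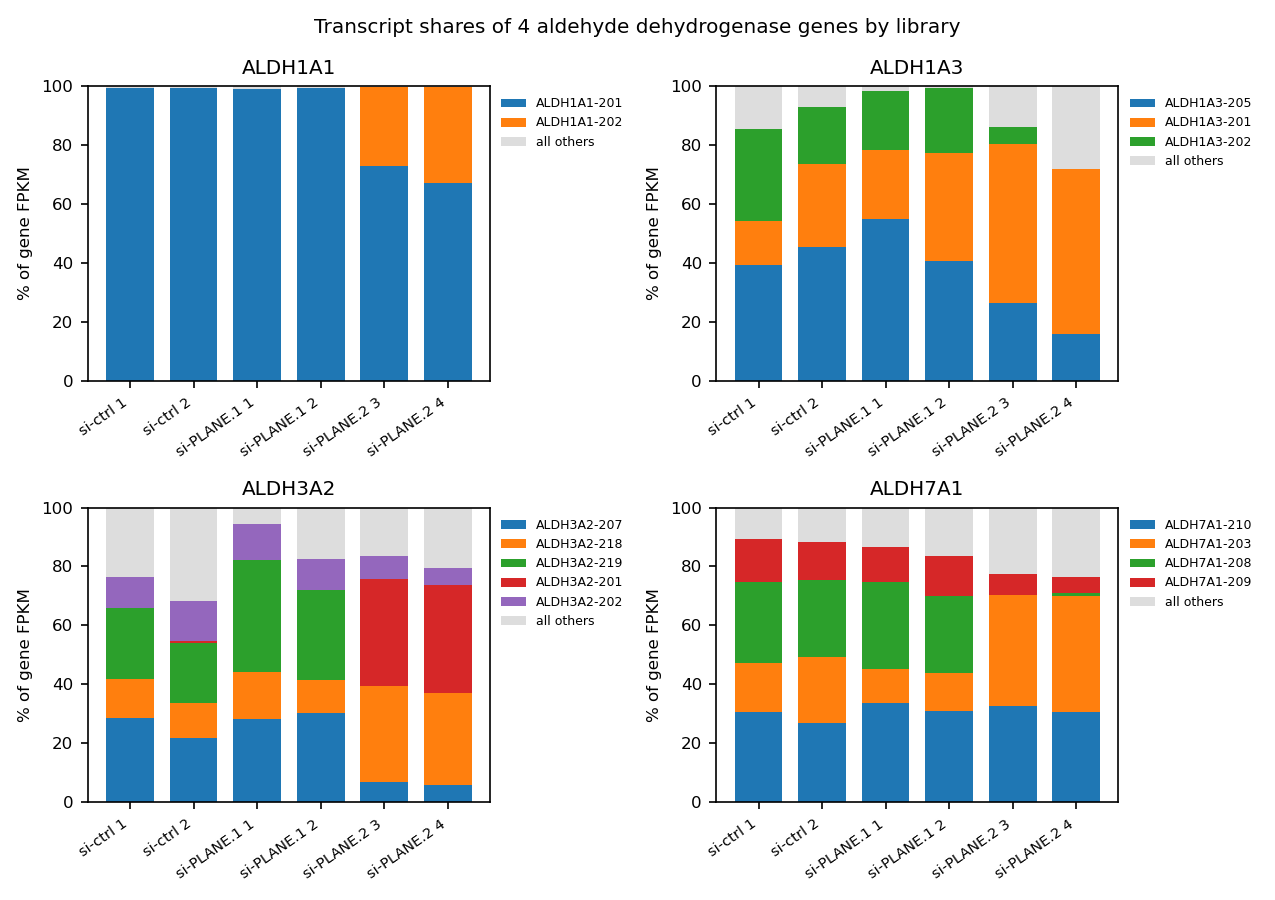
Bars give the share of the gene's FPKM held by each main isoform, and by ALDH1A1-202, in each of the 6 libraries for 4 members, with all other transcripts in grey. ALDH1A1-202 appears only in the si-PLANE.2 bars (26.8% and 32.6%), and in ALDH3A2 the share of ALDH3A2-219 (20.4% to 38.0% in the first 4 bars) is 0 and that of ALDH3A2-201 is 36.2% and 36.5% in the last 2.

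In the other members a single transcript led in every library. ALDH4A1-202 held 70.6% to 99.5% of its gene's FPKM and rose by 1.58 ± 0.22 after si-PLANE.2 (edgeR adjusted p = 0.018). ALDH9A1-201 held 61.3% to 76.5% and rose by 0.54 ± 0.12 (edgeR adjusted p = 0.044), while the other main isoform of ALDH9A1, ENST00000538148, did not pass. ALDH2-201, with 91.9% to 98.4% of its gene's FPKM, had a log2 difference of -0.33 ± 0.10 (edgeR adjusted p = 0.078). ALDH1B1-201, the single transcript, was at 0.47 ± 0.12 in the transcript fit (edgeR adjusted p = 0.057) although the gene passed in the gene fit. ALDH18A1-202, with 63.6% to 77.8%, and ALDH18A1-201 and ALDH18A1-204 did not pass.

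The 3 genes with the pattern most like that of ALDH1A1 over the 6 libraries were PSMD4, NCAPG2 and YWHAQ. Likeness was measured as the root mean square distance of log2(FPKM + 1), centred on each gene's mean, among 8025 genes with a mean of at least 10 FPKM. For ALDH1A1 this is the summed FPKM that includes ALDH1A1-202. The distances were 0.037, 0.040 and 0.047 log2 units. PSMD4, a subunit of the proteasome, was at 100.4 and 95.9 FPKM with si-ctrl, 85.4 and 98.2 after si-PLANE.1, and 166 and 163 after si-PLANE.2.

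Of 9 other aldehyde dehydrogenases in the tables, 6 reached 0.5 FPKM on average across the 6 libraries, and ALDH1A2, ALDH1L1 and ALDH8A1 were below it (ALDH1L1 passed the minimum only in the si-PLANE.2 comparison and was not called). None was called after si-PLANE.1 in edgeR, DESeq2 or limma, and 2 of 6 tested had an unadjusted p under 0.05 in edgeR, beside 10.4% of all genes. After si-PLANE.2, ALDH16A1, ALDH3B2 and ALDH3B1 rose and ALDH6A1 and ALDH1L2 fell on counts, 5 of 7 tested beside 64.1% of all genes. All but ALDH16A1 were also called on the TPM scale with the same direction, beside 57.1% of all genes. ALDH1L2, the mitochondrial enzyme that oxidizes 10-formyltetrahydrofolate, was at 4.24 and 3.51 FPKM with si-ctrl, 6.52 and 5.82 after si-PLANE.1, and 1.64 and 1.70 after si-PLANE.2, and fell by 1.12 ± 0.16 (edgeR adjusted p = 0.00054). ALDH6A1, the methylmalonate semialdehyde dehydrogenase of valine breakdown, had 7.52 and 7.16 FPKM with si-ctrl and 3.23 and 3.91 after si-PLANE.2, and fell by 1.31 ± 0.14 (edgeR adjusted p = 0.00014).

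ALDH3B1 and ALDH3B2 rose by 0.61 ± 0.13 and 1.03 ± 0.13 (edgeR adjusted p = 0.0042 and 0.00029), and without si-PLANE.2 replicate 4 the first was not called. ALDH16A1 rose by 1.81 ± 0.13 on counts (edgeR adjusted p = 2.3e-05), beside 0.47 on the FPKM scale and 0.32 on the TPM scale. ALDH5A1, the succinic semialdehyde dehydrogenase of GABA breakdown, had 9.96 and 9.16 FPKM with si-ctrl and 5.39 and 5.97 after si-PLANE.2, with -0.29 ± 0.11 on counts (edgeR adjusted p = 0.055) and -0.82 on the TPM scale (limma adjusted p = 0.0092). Levels of the 6 genes in si-ctrl ran from 3.51 FPKM for ALDH1L2 to 86.4 FPKM for ALDH3B1.

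The pathways around the members were examined with 4 gene lists. None of their genes was called after si-PLANE.1 in edgeR, DESeq2 or limma, and 2 had an unadjusted p under 0.05 in edgeR, beside 10.4% of all genes. After si-PLANE.2, 4 of the 5 genes of proline and glutamate metabolism, the pathway of ALDH4A1 and ALDH18A1, rose and none fell, beside 64.1% of all genes called and 31.8% called higher. The median log2 fold change of the list was 1.21, beside -0.03 for all genes. PYCRL and PYCR1, reductases that complete proline synthesis, rose by 2.16 ± 0.14 and 1.27 ± 0.10 (edgeR adjusted p = 1.7e-05 and 3.7e-05). PYCRL was at 4.98 and 4.72 FPKM with si-ctrl, 7.22 and 2.93 after si-PLANE.1, and 15.7 and 18.9 after si-PLANE.2. PYCR1 was at 26.9 and 28.2 FPKM with si-ctrl, 40.1 and 24.1 after si-PLANE.1, and 73.5 and 82.1 after si-PLANE.2. For both genes the si-PLANE.2 libraries lay above the other 4. The other 2, OAT (1.21) and GLUD1 (0.51), are named outside the rule for named genes and were chosen after their values were seen. PRODH, which opens proline breakdown, did not pass (-0.15 ± 0.17, edgeR adjusted p = 0.46). All 4 were called without either si-PLANE.2 library and on the FPKM scale, and 3, without GLUD1, on the TPM scale, where OAT was at 0.40.

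Retinoid genes supply or use the retinal and retinoic acid of ALDH1A1 and ALDH1A3. On counts 1 of 13 tested rose and 3 fell after si-PLANE.2, a smaller share than the 64.1% of all genes called. DHRS9, a retinol dehydrogenase, rose by 1.27 ± 0.33 from a low level of 0.84 and 1.18 FPKM (edgeR adjusted p = 0.012), and by 0.78 on the TPM scale. The receptors RARA and RARB fell by 0.89 ± 0.22 and 0.42 ± 0.13 (edgeR adjusted p = 0.0098 and 0.023), at -1.33 and -0.76 on the TPM scale, and CYP26B1, which clears retinoic acid, was at -0.38 ± 0.11 and is named outside the rule (edgeR adjusted p = 0.018). The list held 0 calls without si-PLANE.2 replicate 3 and 1 call, RARA, without replicate 4, beside 46.0% and 46.4% of all genes. On the TPM scale 1 of the 13 rose and 8 fell, beside 57.1% of all genes called, 2313 higher and 5773 lower. The smaller share was thus not seen on that scale.

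Of 5 genes of alcohol and aldehyde oxidation tested, 2 were called higher and 2 lower, beside 64.1% of all genes called. ADH5, the formaldehyde-clearing alcohol dehydrogenase, rose from 36.8 and 38.7 FPKM to 84.1 and 85.8 FPKM, by 1.15 ± 0.10, and AOX1 rose by 2.32 ± 0.31 (edgeR adjusted p = 7.2e-05 and 0.00042). On the FPKM and TPM scales AOX1 was at 0.90 and 0.89, and the source of the difference from counts was not tested. ADH6 fell by 1.48 ± 0.16 (edgeR adjusted p = 0.00015). ADH4, the other gene called lower, was at 1.12 and 0.64 FPKM with si-ctrl and 0.14 and 0.18 after si-PLANE.2, and is given with no p because it reached the minimum level in si-ctrl only. ADH1A and ADH7 were listed at 0 in all 6 libraries. Of 4 genes of lysine breakdown and carnitine synthesis tested, GCDH rose by 1.24 ± 0.16, and DHTKD1 and TMLHE fell by 0.59 ± 0.10 and 0.54 ± 0.17 on counts (edgeR adjusted p = 0.00042, 0.0015 and 0.025), 3 of 4 beside the same 64.1%. DHTKD1 was at 46.4 and 38.1 FPKM with si-ctrl, 51.1 and 50.9 after si-PLANE.1, and 7.33 and 7.14 after si-PLANE.2, so that its log2 difference was larger on the FPKM and TPM scales, at -2.39 and -2.57. TMLHE was not called without si-PLANE.2 replicate 3 or 4, or by DESeq2. On the TPM scale DHTKD1 and TMLHE were called lower and GCDH, at 0.70, did not pass (limma adjusted p = 0.0503).

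**Figure D5:**
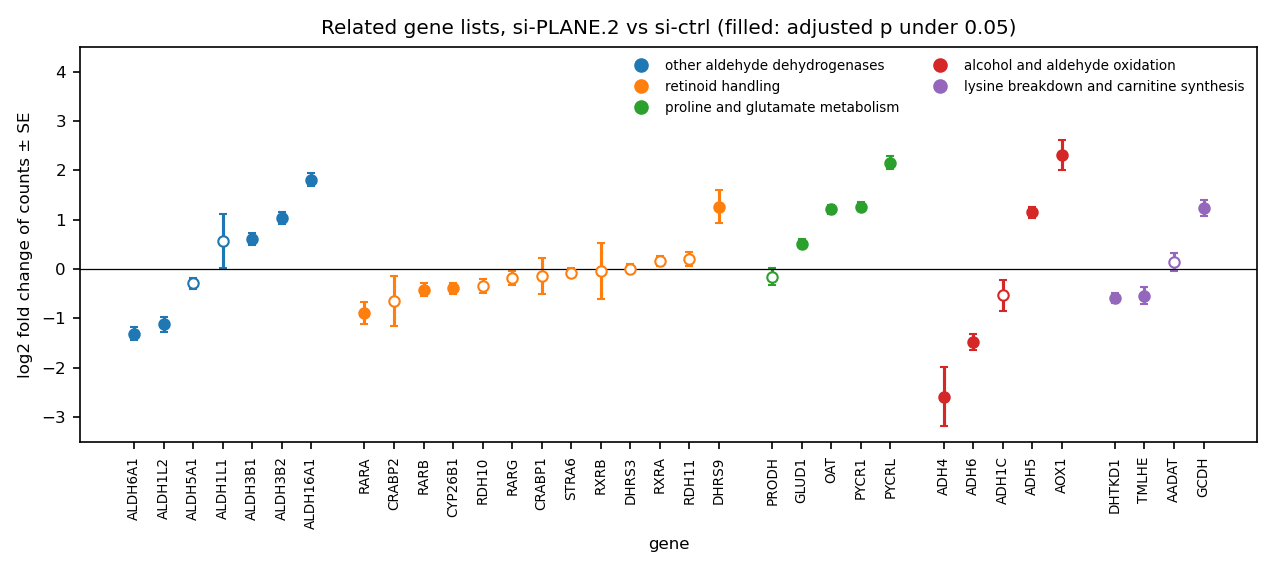
Points give the log2 fold change of counts after si-PLANE.2 with SE bars for the tested genes of 5 lists, coloured by list and filled where the adjusted p was under 0.05. The 4 filled points of proline and glutamate metabolism lie between 0.51 and 2.16, and the other lists hold filled points on both sides of 0.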

How the data were processed

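Short-read RNA-seq of A549 cells was analysed in 6 libraries, 2 each of si-ctrl, si-PLANE.1 and si-PLANE.2, grouped by their labels. For each transcript in each library the authors deposited the expected count, left unscaled, together with FPKM, scaled by length and by mapped fragments. The submitters' processing notes name Trimmomatic 0.30, HISAT2 2.0.1, HTSeq 0.6.1, DESeq and hg19, and the tool that estimated the counts is not given in the sources used here. Values were summed per Ensembl gene, and transcripts without a gene ID (3.03% to 3.62% of counts) were left out of gene sums. Features reaching 0.5 FPKM on average in a fit were tested on rounded counts with edgeR 4.0.16 (TMM, quasi-likelihood, Benjamini-Hochberg over all features, threshold 0.05), in fits of 4 libraries per comparison or, between the siRNAs, all 6. SE is the log2 fold change divided by the root of F.

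Alternatives were DESeq2 1.42.0, limma 3.58.1 on log2(FPKM + 1), log2(FPKM + 0.1) and log2(TPM + 1), other minimum levels, DESeq2 size factors, all 6 libraries in 1 fit, a replicate block and leaving out each library. TPM was made here from the deposited FPKM. Structures and names came from GENCODE v44lift37 on GRCh37 (hg19), which is not necessarily the authors' annotation, since the deposited length of ALDH2-201, 2018 bases, differs from its 9561 exon bases there. The members and lists were chosen with earlier results of these data known. Named were all members, their main isoforms, other aldehyde dehydrogenases at a mean of 0.5 FPKM or more, up to 2 called genes per direction from each pathway list, and the 3 genes most like the most abundant member. PECAM1 was not matched among the marker genes. A few genes of the lists are not reported here, and the counts of the lists leave them out.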

Additional observations from a re-analysis of the deposited data

Results flagged for a closer look

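The difference between the siRNAs was tested in a fit of all 6 libraries, as the log2 fold change of si-PLANE.2 minus that of si-PLANE.1, and the genes below passed a threshold of 0.05 for the adjusted p by the quasi-likelihood test of edgeR. Among the members, ALDH4A1 differed by 1.72 (edgeR adjusted p = 0.0001), ALDH7A1 by 0.87 (0.00041), ALDH1A1 by 0.84 (0.0027), ALDH1B1 by 0.60 (0.00089), ALDH3A2 by 0.57 (0.0014), ALDH1A3 by 0.47 (0.041), ALDH3A1 by 0.44 (0.027) and ALDH9A1 by 0.38 (0.0062). Among the other aldehyde dehydrogenases, ALDH16A1 differed by 2.28 (edgeR adjusted p = 4.2e-06), ALDH3B2 by 0.97 (0.00028), ALDH3B1 by 0.42 (0.020), ALDH5A1 by -0.35 (0.030), ALDH6A1 by -0.98 (0.00081) and ALDH1L2 by -1.69 (2.3e-05).

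Of these genes, ALDH1L2, ALDH16A1 and ALDH3A2 had the largest fitted values after si-PLANE.1, at 0.57, -0.46 and -0.39, none of them past the threshold, and opposite in sign to their values after si-PLANE.2 (-1.12, 1.81 and 0.17 on counts, the last being -0.16 on the FPKM scale and -0.32 on the TPM scale). The share of all genes that differed between the siRNAs was 64.4%.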

How the results depend on the processing

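Depth was lowest after si-PLANE.1, and with 2 libraries a group the spread is poorly known. Among the members, limma on log2(TPM + 1) called 3 after si-PLANE.2 and 3 between the siRNAs, beside 57.1% and 59.8% of all genes. On log2(FPKM + 1) or log2(FPKM + 0.1) limma called 4 in each. The shares of all genes were then 57.2% and 56.9% after si-PLANE.2, and 58.6% and 59.1% between the siRNAs. By edgeR 8 were called in both, beside 64.1% and 64.4%. Leaving out a library gave 2 to 9 member calls after si-PLANE.2, 5 to 8 between the siRNAs, 0 to 11 main isoforms after si-PLANE.2, and 1 to 5 of all genes after si-PLANE.1. All genes called after si-PLANE.1 numbered 5 in edgeR, 124 in DESeq2, 17 with all 6 libraries in 1 fit, 1 on TPM, 1 on log2(FPKM + 1) and 3 on log2(FPKM + 0.1). The F test of isoform use called 7 members after si-PLANE.2 against 4 by Simes, beside 56.3% and 41.2% of all genes. Leaving out libraries was not run for isoform use. A replicate block by the numbers that si-ctrl and si-PLANE.1 share called 1 member (ALDH3A2, -0.39, edgeR adjusted p = 0.013), 1225 of all genes and 0 main isoforms. The deviations of same-numbered libraries correlated at 0.375 over 14535 genes, and nothing in the labels says that a number marks a shared culture. Signs turned for differences near 0 and for some that edgeR had called on counts (after si-PLANE.2 ALDH1A3, ALDH9A1 and ALDH18A1, and between the siRNAs ALDH1A3, ALDH3A1 and ALDH9A1), and the cause was not tested. After si-PLANE.1, ALDH2 was 0.089 on TPM and 0.015 on both FPKM scales, ALDH7A1 was 0.059 on TPM, and ALDH4A1 was 0.16 on TPM, 0.092 on log2(FPKM + 1) and 0.11 on log2(FPKM + 0.1). With a library left out, ALDH1A3 ranged from -0.022 to 0.45, ALDH2 from -0.19 to 0.029, ALDH7A1 from -0.23 to 0.14, ALDH4A1 from -0.28 to 0.18 and ALDH18A1 from -0.0023 to 0.39. After si-PLANE.2 the TPM scale gave ALDH1A3 -0.075, ALDH3A1 -0.11, ALDH3A2 -0.32, ALDH9A1 -0.014 and ALDH18A1 -0.087, and both FPKM scales gave ALDH3A2 -0.16. Between the siRNAs the TPM scale gave ALDH1A3 -0.31, ALDH3A1 -0.046, ALDH9A1 -0.15 and ALDH18A1 -0.44, and the FPKM scales gave ALDH1A3 -0.091 and -0.098 and ALDH18A1 -0.21 in both.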
